A study of Mus musculus with 3 samples.

Results

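Genes of progesterone and estrogen receptor signalling were followed through sections of the pregnant mouse uterus: the receptor genes Pgr, Esr1 and Nr2f2, the receptor co-chaperone gene Fkbp5, and the transcription factor genes Hand2, Hoxa10, Hoxa11, Cebpb, Klf9 and Zbtb16. They were taken by symbol; all 10 were present among the 32285 genes of each matrix. The series held 1 group without treatment: uteri of mated females, kept with littermates to an age of 8 weeks, fed normal chow and dissected at pregnancy day 7.5, with strain and genotype not given in the sources used here. Frozen sections lay on 10x Visium slides, whose barcoded spots each take up RNA from a patch of tissue, often with several cells. There were 3 libraries, of which 1 mixed the sections of biological replicates 1 and 2 and was treated as a single replicate, which leaves n = 3 or fewer.

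The libraries had 1811, 1081 and 1086 spots with medians of 8038, 26543 and 28286 UMIs per spot (replicates 1 and 2, replicate 3, replicate 4), and 3939 of 3978 spots with at least 1000 UMIs were kept. Between 676 and 825 spot barcodes occurred in a pair of libraries, as slides share a barcode set, and 0 of them had equal counts. Spots fell into 14 regions by clustering on genes that were not tested, and counts were summed per library and region into 40 sums of 128779 to 4697567 UMIs. Regions 13 and 14 had no spot in replicate 3, where 3 counts would be a share of 0.278% of its spots. Levels are CPM, the UMIs of a gene scaled to the total of a sum, and ± after a mean is the SD over libraries.

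Steroid hormones steer the uterine stroma through nuclear receptors, which bind DNA when they carry their hormone. Progesterone acts through the receptor encoded by Pgr and drives the change of stromal cells into decidual cells around the implanting embryo, while estrogen acts through the receptor encoded by Esr1. Nr2f2 encodes COUP-TFII, an orphan nuclear receptor of the uterine stroma that works downstream of Indian hedgehog from the epithelium. Hand2 is induced by progesterone in the stroma and restrains fibroblast growth factor signals to the epithelium, and Hoxa10, Hoxa11 and Cebpb are needed for decidualization in mice. Fkbp5 encodes a partner of heat shock protein 90 in steroid receptor complexes and is itself switched on by progesterone and glucocorticoids. Klf9 and Zbtb16 encode zinc finger proteins of the same pathway.

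The stretches upstream of 5 of these genes are shown because their transcripts moved together or in opposite directions between regions: Hoxa10 and Hoxa11 are neighbours with like patterns, and Hand2 and Cebpb were high in regions 1 and 13, where Esr1 was low. Each is the 250 bases before a RefSeq transcript start on GRCm38.p6, and 9 of 10 genes were matched. The intervals are chr6:52240855-52241104 (minus strand) for Hoxa10, chr6:52245811-52246060 (minus strand) for Hoxa11, chr8:57320733-57320982 (plus strand) for Hand2, chr2:167688665-167688914 (plus strand) for Cebpb and chr10:4611739-4611988 (plus strand) for the upstream start of Esr1. Capitals mark matches on either strand of TGTTCT (an arm of the progesterone and glucocorticoid receptor element), TGACC (an arm of the estrogen receptor element) and CCAAT (the CCAAT box).
Hoxa10: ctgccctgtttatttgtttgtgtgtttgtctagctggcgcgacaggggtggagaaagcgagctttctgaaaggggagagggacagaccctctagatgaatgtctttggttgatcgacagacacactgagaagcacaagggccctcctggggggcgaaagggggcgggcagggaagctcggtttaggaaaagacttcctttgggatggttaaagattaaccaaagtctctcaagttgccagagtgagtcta
Hoxa11: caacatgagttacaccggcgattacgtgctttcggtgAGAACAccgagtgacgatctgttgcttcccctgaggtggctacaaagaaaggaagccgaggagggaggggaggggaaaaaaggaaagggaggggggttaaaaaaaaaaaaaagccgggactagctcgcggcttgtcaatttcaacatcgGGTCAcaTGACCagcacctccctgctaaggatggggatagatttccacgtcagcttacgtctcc
Hand2: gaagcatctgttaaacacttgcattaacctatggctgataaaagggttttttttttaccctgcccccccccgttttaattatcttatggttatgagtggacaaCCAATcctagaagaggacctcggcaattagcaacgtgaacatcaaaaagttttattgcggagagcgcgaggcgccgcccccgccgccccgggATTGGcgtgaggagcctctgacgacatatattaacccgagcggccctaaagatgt
Cebpb: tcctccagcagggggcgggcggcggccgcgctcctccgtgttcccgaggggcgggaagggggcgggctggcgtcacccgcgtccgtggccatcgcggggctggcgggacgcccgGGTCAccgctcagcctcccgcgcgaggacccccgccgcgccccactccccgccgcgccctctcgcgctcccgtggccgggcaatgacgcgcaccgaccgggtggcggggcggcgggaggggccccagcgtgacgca
Esr1: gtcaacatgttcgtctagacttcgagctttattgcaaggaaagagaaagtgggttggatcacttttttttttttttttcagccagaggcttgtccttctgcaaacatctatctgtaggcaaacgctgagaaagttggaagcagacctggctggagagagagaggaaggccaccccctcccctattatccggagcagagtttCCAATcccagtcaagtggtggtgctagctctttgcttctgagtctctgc
Both strands were searched. The full progesterone receptor element (AGAACA and TGTTCT with 3 bases between) and estrogen receptor element (GGTCA and TGACC with 3 bases between) were in 0 of 11 upstream stretches of the 9 matched genes, and in 3 and 21 of 32851 stretches of the same length over all genes. The Hoxa11 stretch held a TGTTCT match, which 16.1% of all stretches hold, and a pair of TGACC matches facing each other across a gap of 2 bases. That arrangement was searched after the sequence was read and was found in 24 of 32851 stretches. A TGACC match also lay in the Cebpb stretch, against 35.2% of all stretches, and CCAAT lay in 7 of the 11 stretches, against 33.8% of all. The Hoxa10 stretch shown had none of these motifs, and its CCAAT match lay before a second RefSeq start at chr6:52234940-52235189. A full element contains its arms, so these motifs overlap, and a match describes letters only.

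All members lie in protein-coding genes of GENCODE release M21 (GRCm38), and UMIs were counted for the whole gene. Pgr spans chr9:8899833-8968611, Esr1 chr10:4611593-5005614, Hand2 chr8:57320983-57324633, Hoxa10 chr6:52231197-52240854, Hoxa11 chr6:52242106-52245810 and Cebpb chr2:167688915-167690418. Nr2f2 spans chr7:70351944-70366735, Fkbp5 chr17:28399094-28517527, Klf9 chr19:23141226-23168134 and Zbtb16 chr9:48654297-48836222. Hoxa10 and Hoxa11 lie 1252 bp apart on the same strand. Over whole libraries the members varied little. Pgr stood at 48.2 ± 2.47 CPM, Esr1 at 76.1 ± 4.61, Nr2f2 at 116 ± 7.27 and Hand2 at 506 ± 37.4 CPM (SD, n = 3 each). Cebpb varied most among the tested members for its size, with 304 ± 58.7 CPM (SD, n = 3). Zbtb16 had 96 UMIs in all 3 libraries, at most 9 in a sum and 0 in 9 of 40 sums, so it was listed but not tested, and its distribution between regions was not detectable at this depth.

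The log2 level in each region was compared with its mean over the remaining 13 by edgeR's quasi-likelihood test, fitted to 6504 genes that included 9 members. Genes were called where the p adjusted by Benjamini-Hochberg was under 0.05 and the log2 fold change reached 1 or -1. Fold changes are written as log2 ± SE of the fit, whose spread is pooled over all sums. A lower value in a region can mean fewer cells that make the transcript or less of it per cell, and these cannot be told apart in summed spots. The members made 43 calls in 126 tests, 21 higher and 22 lower. All 6504 genes made 10446 higher and 6656 lower calls over the same 14 regions. Of the members' 43 calls, 14 held under every alternative tried, and 42 kept their sign under every alternative. Those 14 include Pgr, Esr1, Hand2, Hoxa10, Hoxa11 and Nr2f2 in region 14. Calls in region 14 faced 14 alternatives and the others 16, because settings without region 14 cannot apply to it. The alternative without a minimum fold change keeps every call by its rule. In other clusterings each region was matched to the cluster that overlapped it most, so the same cluster could stand for more than 1 region. At a clustering resolution of 0.3 this held for regions 4 and 7, 3 and 9, and 10 and 14, among others. Because 9 members were all far lower in region 14, that region raised the others' values. Without it, 25 of the 34 calls outside region 14 held, and each of the 9 lost was a higher call. The same fit gained 5 calls, all lower: Fkbp5 in region 7 (-1.004), Hoxa10 in region 9 (-1.15), and Hoxa10 (-1.01), Hoxa11 (-1.18) and Pgr (-1.25) in region 10.

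**Figure D1:**
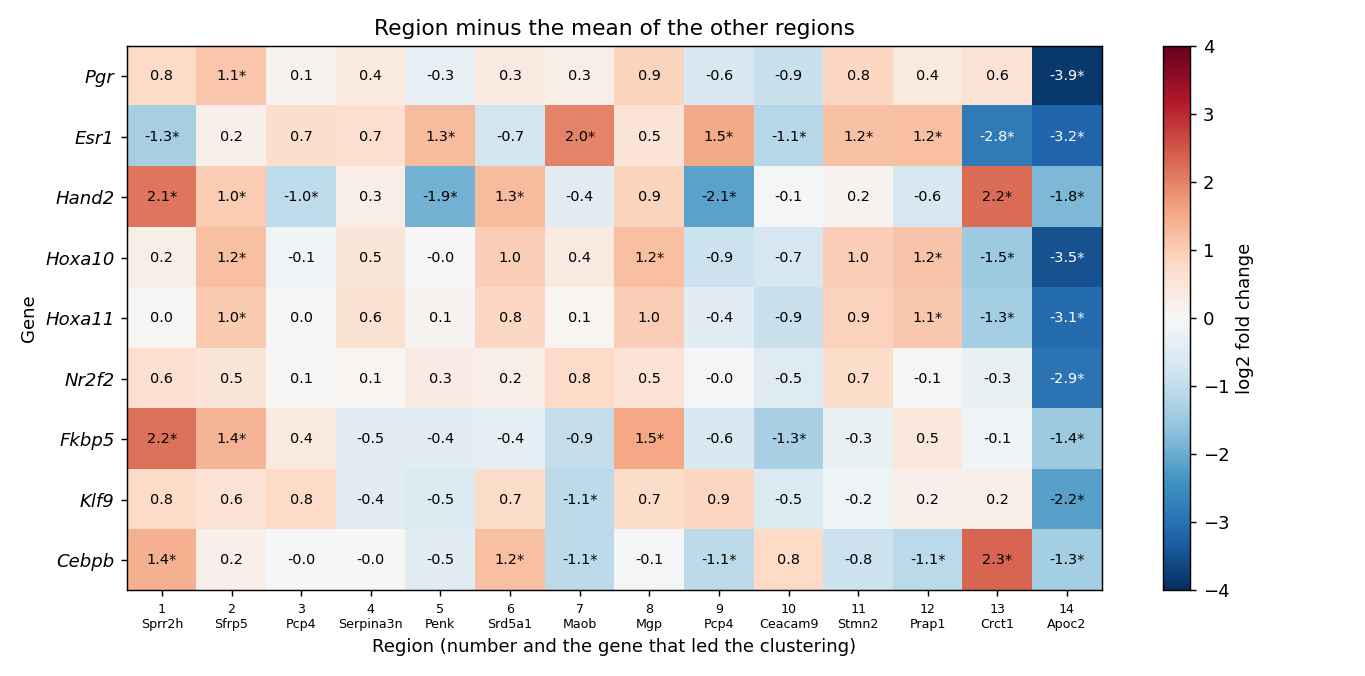
Log2 fold change of each tested gene (rows) in each region (columns) against the mean of the other regions, in colour, with called values marked. Esr1 was called higher in 5 regions and lower in 4, and all 9 genes were called lower in region 14.

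Esr1, the estrogen receptor gene, differed most between regions among the members, with a span of 5.15 (log2) from region 7, its highest, to region 14, its lowest. That span lay at the 75.8th percentile of all genes tested, whose median was 2.65. Esr1 had 0 and 7 UMIs in region 14 (replicates 1 and 2, replicate 4). The span and its lead over Pgr (4.96), also lowest in region 14, thus rest on few counts. Esr1 was highest in region 7, which was led in the clustering by Maob, Necab2 and Chn1, at 251, 177 and 267 CPM (replicates 1 and 2, replicate 3, replicate 4). No other sum overlapped those values. The fold change was 1.97 ± 0.10 (edgeR adjusted p = 6.5e-20), called under 16 of 16 alternatives, and region 7 had 10.7% of all genes called higher. At a clustering resolution of 0.3 and at 5000 UMIs per spot, regions 4 and 7 shared a matched cluster, so those alternatives do not test region 7 alone. Without replicate 4, the 0 UMIs of Esr1 in region 14 enter the mean of the other regions. With replicate 4 and region 14 both left out, the value was 1.75 and was called. Natural killer cell markers summed to 15601 ± 5978 CPM there (SD, n = 3), with all 15 of 15 markers present. In region 4 the same markers summed to 15844 CPM in mean, and Esr1 stood at 71.5, 83.4 and 101 CPM. The part of natural killer cells in the level of Esr1 was not tested.

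Esr1 was also higher in region 9 (Pcp4, Fbxl22, Sh3bgr), where smooth muscle markers were highest, at 136, 169 and 126 CPM (1.52 ± 0.12, edgeR adjusted p = 9.7e-14). Region 5 (Penk, Ifi27l2a) had 143, 134 and 141 CPM (1.28 ± 0.11). Regions 11 (Stmn2, Sned1) and 12 (Prap1, Sfrp4) had 121, 124 and 141 CPM and 108, 131 and 104 CPM. Their values of 1.17 ± 0.12 and 1.202 ± 0.13 were 0.96 and 0.94 without region 14, under the minimum fold change. Stromal matrix markers such as collagens summed to 14462 CPM in region 9, 16107 in region 5, 6942 in region 11 and 15399.8 in region 12, and their part in the level of Esr1 was not tested. In these 4 regions the Esr1 levels lay close together, since neighbours in that order overlapped between libraries.

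Where decidual markers were most abundant, Esr1 was low. Region 13 (Crct1, Htra1, Gm2a) had 3.38 and 6.72 CPM, from 3 and 9 UMIs, and region 1 (Sprr2h, Gpnmb, Krtdap) had 19.3, 13.7 and 19.5 CPM. The fold changes were -2.83 ± 0.32 in region 13 (edgeR adjusted p = 6.1e-10) and -1.33 ± 0.15 in region 1 (edgeR adjusted p = 9.1e-10). In region 10 (Ceacam9, Prl4a1), which had the highest summed trophoblast markers, Esr1 was at 16.1, 30.7 and 23.2 CPM (-1.13 ± 0.17). Leaving out replicate 4 left these 3 contrasts without a usable test (adjusted p = 1), because Esr1 then had 0 UMIs in region 14, which enters the mean of the other regions. With replicate 4 and region 14 both left out, Esr1 was called at -3.63 in region 13, -1.63 in region 1 and -1.32 in region 10.

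**Figure D2:**
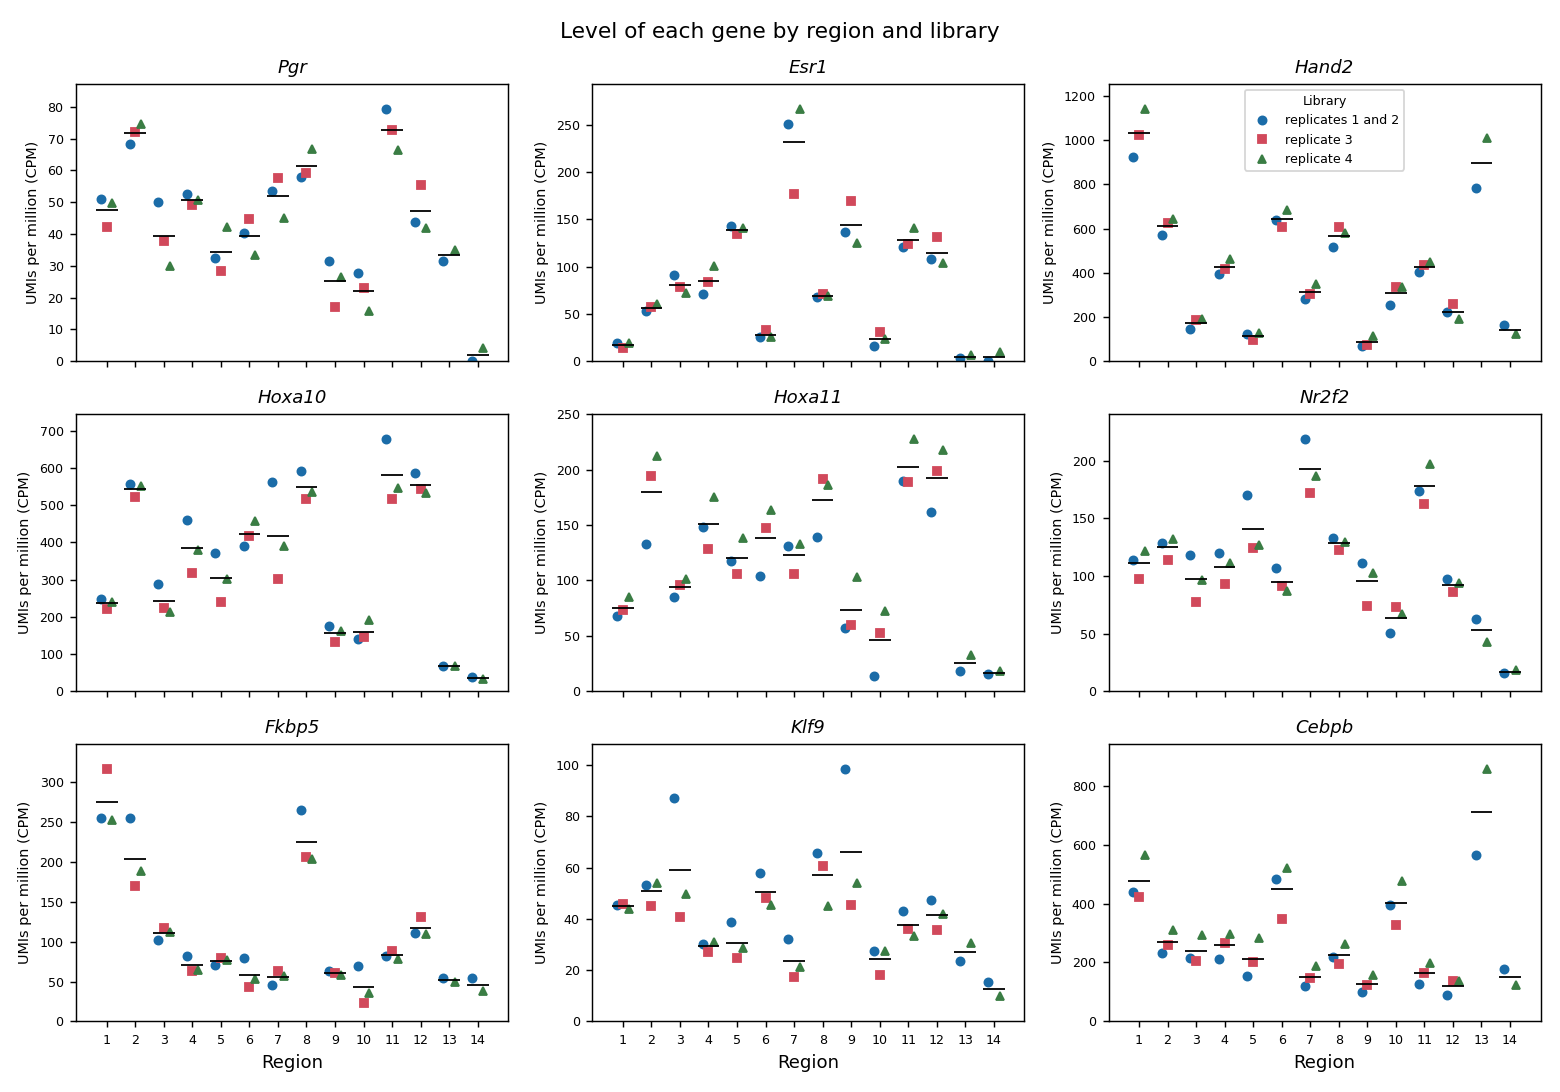
Level (CPM) of 9 genes in each region, by library, with a bar at the mean. Esr1 peaks in region 7, Hand2 in regions 1 and 13, Fkbp5 in regions 1, 2 and 8 and Cebpb in region 13, while Pgr spans a narrower range outside region 14.

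Pgr, the progesterone receptor gene, had a span of 4.96 (log2), with its lowest value in region 14. Its highest means were 72.7 CPM in region 11 (79.3, 72.5 and 66.4 CPM) and 71.6 CPM in region 2 (68.2, 72.0 and 74.5 CPM), and the libraries of these regions overlapped. Region 2, led by Sfrp5 and Tdo2, gave the only higher call, with 1.103 ± 0.11 (edgeR adjusted p = 1.9e-11). It held under 7 of 16 alternatives and was 0.80 without region 14. Region 1 had 51.0, 42.1 and 49.7 CPM (0.79 ± 0.12) and region 7 had 53.6, 57.5 and 44.9 CPM (0.25 ± 0.13), neither of them called. In region 13, 31.6 and 35.1 CPM corresponded to 52.3 and 52.9 CPM after TMM scaling (0.58 ± 0.20). The 15 decidual markers, which include the prolactin family gene Prl8a2, took 177243 CPM of region 13 in mean.

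Region 14, led by Apoc2, Bex1 and H19, had the highest embryo and yolk sac markers, at 2376 and 2815 CPM in sum, with all 13 of 13 present. Pgr had 0 and 3 UMIs there, of 844205 UMIs, which was 13.01-fold below the mean CPM of the other sums (95% counting interval 4.45 to 63.1). Every one of the 9 tested members was called lower in region 14, in which 15.7% of all genes were called lower and 12.4% higher. Hoxa10 (-3.49 ± 0.22), Esr1 (-3.18 ± 0.39), Hoxa11 (-3.07 ± 0.31) and Nr2f2 (-2.94 ± 0.27) were lowest beside Pgr. The calls of Cebpb, Fkbp5 and Klf9 in region 14 ended without replicate 4, at -0.75 (adjusted p = 0.24), -1.30 (adjusted p = 0.28) and -1.98 (adjusted p = 0.17), when 1 sum remained. The fitted values of Pgr and Esr1 without replicate 4, -9.26 and -9.58, rest on 0 UMIs and are no measure of size.

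Counts of Esr1 over counts of Pgr set the regions apart. The ratio was 4.68, 3.07 and 5.95 in region 7, 4.32, 9.92 and 4.71 in region 9, and between 3.33 and 4.73 in region 5. It was 0.379, 0.325 and 0.393 in region 1 and 0.107 and 0.191 in region 13. The ranges of regions 5, 7 and 9 over libraries did not overlap those of regions 1 and 13. Region 13 had no spots in replicate 3, and its ratios rest on 3 and 9 UMIs of Esr1. These ratios compare regions and do not compare the genes' levels, since neither is given per length.

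Nr2f2, the COUP-TFII gene, had its highest levels in region 7 (219, 172 and 187 CPM) and region 11 (173, 163 and 197 CPM). Its values there were 0.76 ± 0.09 and 0.74 ± 0.09, under the minimum fold change. Regions 1, 2, 3, 4, 6, 8, 9 and 12 lay between 92.5 and 129 CPM in mean, with overlap between neighbours in that order. The single call of Nr2f2 was the lower one in region 14, with 15.5 and 18.2 CPM.

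Fkbp5, whose product sits in steroid receptor complexes, was highest in region 1, at 256, 317 and 253 CPM. The fold change was 2.19 ± 0.10 (edgeR adjusted p = 2.5e-21), called under 16 of 16 alternatives. Region 8 (Mgp, Sfrp4, Rbp4) had 265, 207 and 204 CPM (1.54 ± 0.12, edgeR adjusted p = 4.5e-14). Region 2 had 255, 170 and 188 CPM (1.37 ± 0.11, edgeR adjusted p = 1.5e-13). These 3 regions overlapped between libraries, and the next region, 12, reached 131 CPM at most. Region 10 was lower, with 69.1, 23.7 and 36.2 CPM (-1.30 ± 0.18, edgeR adjusted p = 7.4e-08), also called under 16 of 16 alternatives.

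Fkbp5 and Hand2 parted in region 13. Fkbp5 had 54.1 and 50.1 CPM there (-0.11 ± 0.21, edgeR adjusted p = 0.76), while Hand2 had 783 and 1011 CPM (2.25 ± 0.09, edgeR adjusted p = 2.0e-24). At a resolution of 0.3 and with no minimum of UMIs per spot, the cluster matched to region 13 gave Fkbp5 values of 1.35 and 1.51. Those clusters overlapped region 13 by Jaccard indices of 0.389 and 0.383, so they held other spots too.

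Hand2, the stromal transcription factor gene under progesterone control, was highest in regions 1 and 13, where decidual markers were highest. Region 1 had 925, 1025 and 1142 CPM, with a fold change of 2.14 ± 0.07 (edgeR adjusted p = 6.0e-27). Of all genes 10.1% were called higher in region 1 and 14.8% in region 13. Region 6 (Srd5a1, Mrgprg, Il1r2) had 637, 609 and 684 CPM (1.27 ± 0.08). Region 2 had 573, 623 and 646 CPM, and its value of 1.00 ± 0.08 was called under only 4 of 16 alternatives, being 0.97 without replicate 3, 0.99 without replicate 4 and 0.87 without region 14. Decidual markers summed to 69813 CPM in region 1 and 34602 in region 6, but to 11089 CPM in region 2 and 12761 CPM in region 8, where Hand2 still had 515, 608 and 580 CPM. Hand2 did not rank with decidual markers everywhere: they summed to 33058 CPM in region 10, where Hand2 had 256, 335 and 337 CPM (-0.09 ± 0.09, edgeR adjusted p = 0.49), and to 10279 CPM in region 3, where it was called lower.

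At the other end Hand2 had 70.7, 75.3 and 114 CPM in region 9 (-2.13 ± 0.12, edgeR adjusted p = 2.7e-19) and 122, 98.4 and 127 CPM in region 5 (-1.90 ± 0.11, edgeR adjusted p = 1.0e-18). Both were called under 16 of 16 alternatives, beside 8.64% and 5.58% of all genes called lower. Region 3 (Pcp4, Wfikkn2, Ccl21a), with 144, 186 and 191 CPM, was at -1.01 ± 0.10. That call ended without replicates 1 and 2 (-0.91) and without replicate 3 (-0.997). Smooth muscle markers summed to 44106 CPM in region 9, 19722 in region 3 and 9477 in region 5, against 954 CPM in region 1, and their part in the level of Hand2 was not tested.

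Cebpb, a leucine zipper factor gene of the decidua, was highest in region 13, with 566 and 856 CPM (2.31 ± 0.11, edgeR adjusted p = 3.4e-21), called under 16 of 16 alternatives. It was also higher in region 1, with 439, 424 and 563 CPM (1.43 ± 0.09), and in region 6, with 482, 349 and 519 CPM (1.204 ± 0.10). In region 10 it had 396, 329 and 478 CPM, and 0.79 ± 0.11 missed the minimum fold change. Neutrophil markers summed to 5219 CPM in region 6 and 3320 in region 10, but 357 in region 1. Macrophage markers summed to 138 CPM in region 1, the lowest of all 14 regions, and 614 in region 13. Cebpb is also made by myeloid cells, and their part in region 6 was not tested.

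Lower calls of Cebpb came in regions 7 (119, 148 and 187 CPM), 9 (101, 124 and 159 CPM) and 12 (89.4, 138 and 137 CPM), at -1.05 ± 0.12, -1.05 ± 0.13 and -1.09 ± 0.14. Each ended without the library of replicates 1 and 2, at -0.98, -0.98 and -0.97. The gene Tmem189 overlaps Cebpb on the opposite strand. It had 215, 253 and 238 CPM in region 6, 195 and 274 CPM in region 13 and 83.1, 161 and 98.5 CPM in region 1. The ratio of Tmem189 to Cebpb counts was 0.447, 0.727 and 0.458 in region 6, above its values in regions 1 and 13, and Tmem189 was itself called higher in region 6 (1.97 ± 0.09). Strand-aware counting is not stated in the sources used here, so whether reads from overlapping genes on opposite strands were kept apart is not known.

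Hoxa10 and Hoxa11, neighbouring homeobox genes of the HoxA cluster, had like patterns. Hoxa10 was called higher in region 2 (557, 522 and 551 CPM, 1.197 ± 0.08), region 8 (593, 517 and 536 CPM, 1.22 ± 0.08) and region 12 (585, 542 and 532 CPM, 1.15 ± 0.09). Hoxa11 was called higher in region 2 (133, 194 and 212 CPM, 1.05 ± 0.10) and region 12 (162, 198 and 217 CPM, 1.09 ± 0.12). Hoxa11 in region 2 was 0.92 without replicate 3. All 5 calls ended without region 14, at 0.93, 0.92 and 0.87 for Hoxa10 and 0.80 and 0.84 for Hoxa11. The highest mean level of both was in region 11, at 580 and 202 CPM, where 0.99 ± 0.09 and 0.94 ± 0.11 missed the minimum fold change. These levels are not TMM-scaled, while the fit is. By the fit, Hoxa10 was highest in region 8 and Hoxa11 in region 12.

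Both Hox genes fell in region 13. Hoxa10 had 68.8 and 67.2 CPM there (-1.46 ± 0.15, edgeR adjusted p = 3.5e-11) and Hoxa11 had 18.0 and 32.9 CPM (-1.35 ± 0.21, edgeR adjusted p = 1.1e-06). In region 1 they were near the mean of the other regions, with 0.24 ± 0.09 and 0.04 ± 0.11. Hoxa10 had 249, 222 and 239 CPM in region 1, above its range in region 13, and Hoxa11 had 67.8, 73.6 and 85.4 CPM. The libraries of regions 1 and 13 did not overlap for either Hox gene, and the difference between these regions was not tested.

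Klf9, a zinc finger partner of the progesterone receptor, varied least of the tested members, with a span of 3.04 over regions. Region 9 had its highest mean from 98.5, 45.5 and 54.2 CPM, a spread that overlapped region 3 and several others. It was lower in region 7, with 32.2, 17.5 and 21.3 CPM (-1.06 ± 0.17, edgeR adjusted p = 1.3e-06), and at -0.96 without replicate 3. No region gave Klf9 a higher call.

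Counted by region, region 2 had 5 of 9 members higher, where 7.03% of all genes were higher and 4.98% lower. DESeq2 called 2 of these 5. Region 1 had 3 higher and 1 lower (10.1% and 9.41% of all genes), and region 12 also had 3 higher and 1 lower (11.8% and 2.72%). In region 13, 2 were higher and 3 lower (14.8% and 15.3%). Region 8 had 2 higher (6.7% of all genes higher and 3.44% lower), and so did region 6 (13.5% and 6.93%). Regions 9 and 7 had 1 higher and 2 lower each (15.8% and 8.64% of all genes in region 9, 10.7% and 8.69% in region 7). Region 5 had 1 in each direction (14.1% and 5.58%), and region 11 had 1 higher (7.53% and 5.09%). Region 10 had 2 lower (13.6% higher and 7.95% lower), and region 3 had 1 lower (14% and 3.12%). Without region 14, 5 of 9 were lower in region 10, with replicate 4 kept or left out. With replicate 4 kept, that fit made 8907 higher and 6328 lower calls over all genes and its regions. Its share for region 10 alone is not given here. Of the higher calls in region 2, only that of Fkbp5 held without region 14 (1.26). Pgr was then at 0.80, Hand2 at 0.87, Hoxa10 at 0.93 and Hoxa11 at 0.80. The higher calls of regions 11 and 12 and that of Hoxa10 in region 8 also ended. With replicate 4 left out as well, Esr1 in region 12 was called at 1.06. The shares of all genes given here are from the fit with region 14. In region 4 (Serpina3n, Aldh3a1, Fcer1g) edgeR and DESeq2 each called 0 members, where 8.7% of all genes were higher and 4.77% lower. At an unadjusted p under 0.05, 5 members were higher and 2 lower in region 4.

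Region 1, with the highest mean fold change of decidual markers, was then set directly against region 9, with the highest of smooth muscle markers, and region 7, with the highest of natural killer cell markers. Against region 9, Hand2 (3.96 ± 0.14), Fkbp5 (2.59 ± 0.20), Cebpb (2.30 ± 0.16), Pgr (1.30 ± 0.20) and Hoxa10 (1.01 ± 0.13) were higher in region 1. Esr1 was lower in region 1 by the fit (-2.64 ± 0.18, edgeR adjusted p = 1.3e-16). These were 5 of 9 higher and 1 lower, where 17.9% of all genes were higher and 22% lower. Hoxa10 missed the minimum fold change without replicate 3 (0.93) and with DESeq2 (0.77). Hoxa11 (0.45 ± 0.17), Nr2f2 (0.61 ± 0.14) and Klf9 (-0.11 ± 0.18) were not called.

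Against region 7, Fkbp5 (2.91 ± 0.18), Hand2 (2.38 ± 0.12), Cebpb (2.30 ± 0.15) and Klf9 (1.68 ± 0.19) were higher in region 1, and Esr1 was lower (-3.06 ± 0.16, edgeR adjusted p = 1.1e-19). These were 4 of 9 higher and 1 lower, where 16.3% of all genes were higher and 19.8% lower. All 5 calls held under 15 of 15 alternatives. Pgr (0.50 ± 0.15) was under the minimum fold change. Hoxa10 (-0.12 ± 0.12), Hoxa11 (-0.03 ± 0.15) and Nr2f2 (-0.13 ± 0.12) had differences within about 1 SE of 0. Both comparisons share the sums of region 1.

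**Figure D3:**
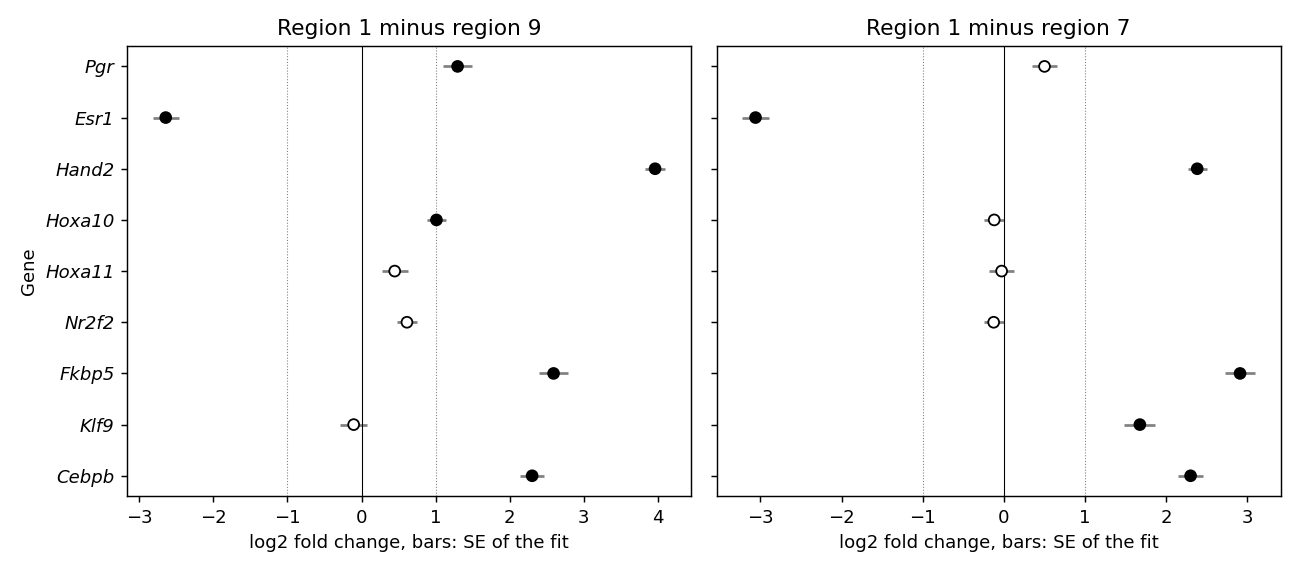
Log2 fold change (± SE of the fit) of 9 genes in region 1 minus region 9 (left) and region 1 minus region 7 (right), with filled points for calls and dotted lines at the minimum fold change of 1. Esr1 lies at -2.64 and -3.06, and Hand2, Fkbp5 and Cebpb lie above 2 in both panels.

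Across the 40 sums, with levels as log2(CPM + 1) centred within each library, Hoxa10 and Hoxa11 had r = 0.957, and 0.943 over the 38 sums without region 14. Esr1 and Cebpb had r = -0.607, and -0.909 without region 14. Esr1 and Hand2 had -0.364 and -0.642, and Hand2 and Cebpb had 0.683 and 0.662. Pgr and Nr2f2 had 0.840 and 0.609, and Pgr and Esr1 had 0.611 and 0.237. The points share libraries, depth and regions, so these values are descriptions. Single spots were also compared after thinning each to 3000 UMIs (168, 2 and 3 spots were too shallow). Spearman's rho of the 45 pairs lay between -0.14 and 0.21 in each library. Without thinning it lay between -0.21 and 0.75.

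**Figure D4:**
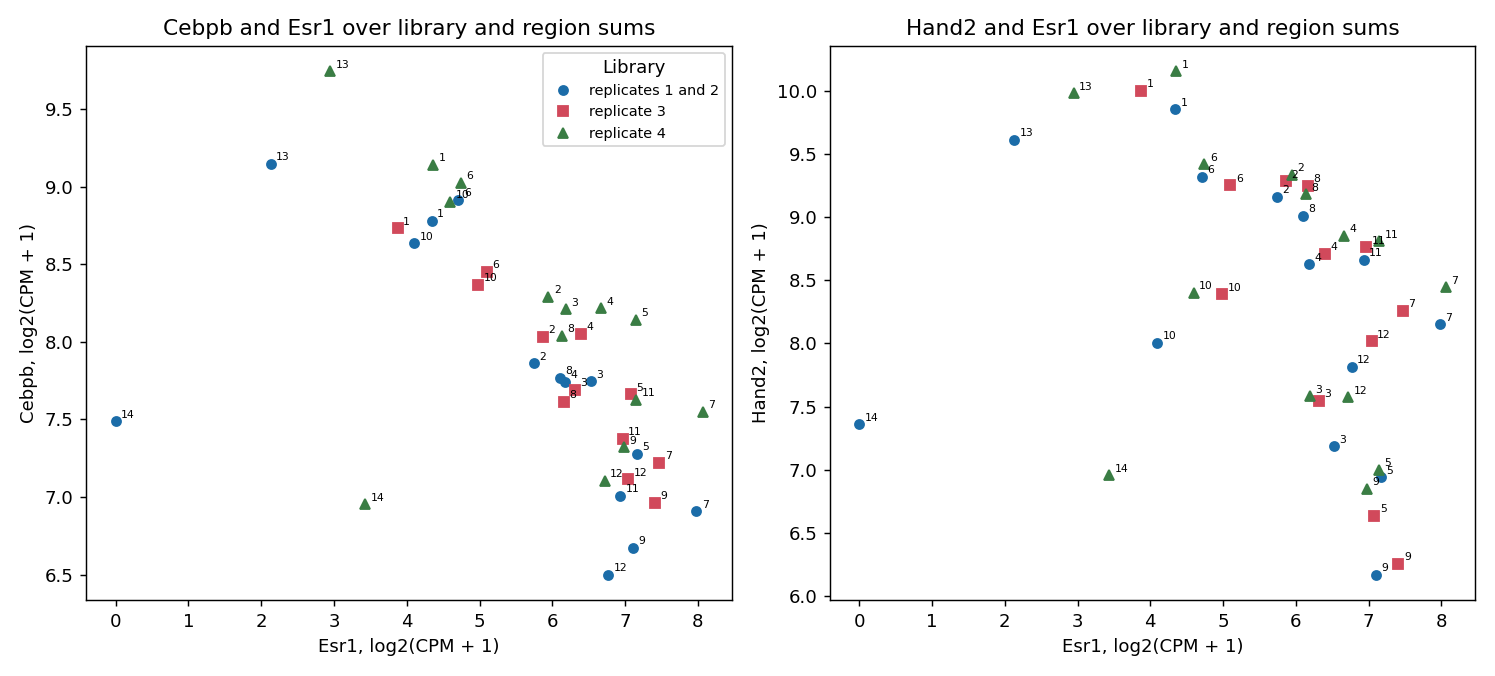
Level of Cebpb (left) and Hand2 (right) against Esr1, both as log2(CPM + 1), with 1 point per sum of a library and region, labelled by region. The 2 sums of region 14 are low in Esr1 and in the other gene. Over the other 38 sums Cebpb tends to be lower where Esr1 is higher (r = -0.909), and Hand2 less closely (r = -0.642). Hand2 has its lowest mean in region 9, not in region 7, where Esr1 is highest.

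Likeness of pattern over the 40 sums was ranked for 4387 other genes whose mean log2(CPM + 1) reached 3. Only genes that entered the tests could be ranked, namely the random set kept out of clustering and the listed genes. Unlisted genes of the clustering set could therefore not appear, while listed genes such as Hoxa9 and Hoxd10 could. Most like Hand2 were Jcad (r = 0.944), Epas1 (0.938) and Sav1 (0.937). Epas1 encodes the hypoxia factor HIF-2α. Most like Fkbp5 were Kcnn4 (0.933), Atoh8 (0.883) and Tef (0.854), and most like Cebpb were Capg (0.933), Map2k3 (0.893) and Parm1 (0.884). Esr1 had Oaz2 (0.943), Ift172 (0.942) and Sardh (0.933). Among the genes ranked, Hoxa10 and Hoxa11 were each other's closest. Next came Psd3 (0.914) and Hoxa9 (0.909) for Hoxa10 and Klf3 (0.918) for Hoxa11. Pgr had Hoxa9 (0.909), Fam174a (0.897) and Anxa3 (0.884), and Nr2f2 had Hoxd9 (0.895), Smim19 (0.894) and Hoxd10 (0.883). Klf9 had Slc39a13 (0.812), Adam15 (0.798) and Des (0.797). Without region 14 the closest gene was the same for Hand2, Hoxa10, Hoxa11, Fkbp5 and Cebpb, and another for Pgr (Rin3), Esr1 (Sardh), Nr2f2 (Prickle1) and Klf9 (Des).

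Hoxa11 and Hand2 have antisense neighbours, transcripts from the opposite strand that overlap them. Hoxa11os spans chr6:52244393-52249799 and covers the upstream stretch of Hoxa11 printed above, and Hand2os1 spans chr8:57281117-57324233. In region 1 Hoxa11os had 39.6, 42.4 and 43.5 CPM, with a fold change of -1.33 ± 0.17 (edgeR adjusted p = 1.1e-08), while Hoxa11 was at 0.04 ± 0.11. In region 4 Hoxa11os had 422, 302 and 332 CPM (1.44 ± 0.12, edgeR adjusted p = 6.4e-13), and Hoxa11 was at 0.60 ± 0.11. The ratio of Hoxa11os to Hoxa11 counts was 0.584, 0.576 and 0.510 in region 1, and 2.85, 2.35 and 1.90 in region 4. It was below every other sum in region 1, except the sum of region 14 with 0 and 2 counts.

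Hand2os1 went up with Hand2. It had 273, 251 and 325 CPM in region 1 (1.56 ± 0.09) and 51.8, 48.3 and 53.3 CPM in region 9 (-1.54 ± 0.15). The ratio of Hand2os1 to Hand2 counts was 0.295, 0.245 and 0.285 in region 1, and ran between 0.467 and 0.732 in region 9. These overlapping partners were added to the lists after the data had been seen, and, as for Tmem189, unstranded counting could mix the reads of partners.

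**Figure D5:**
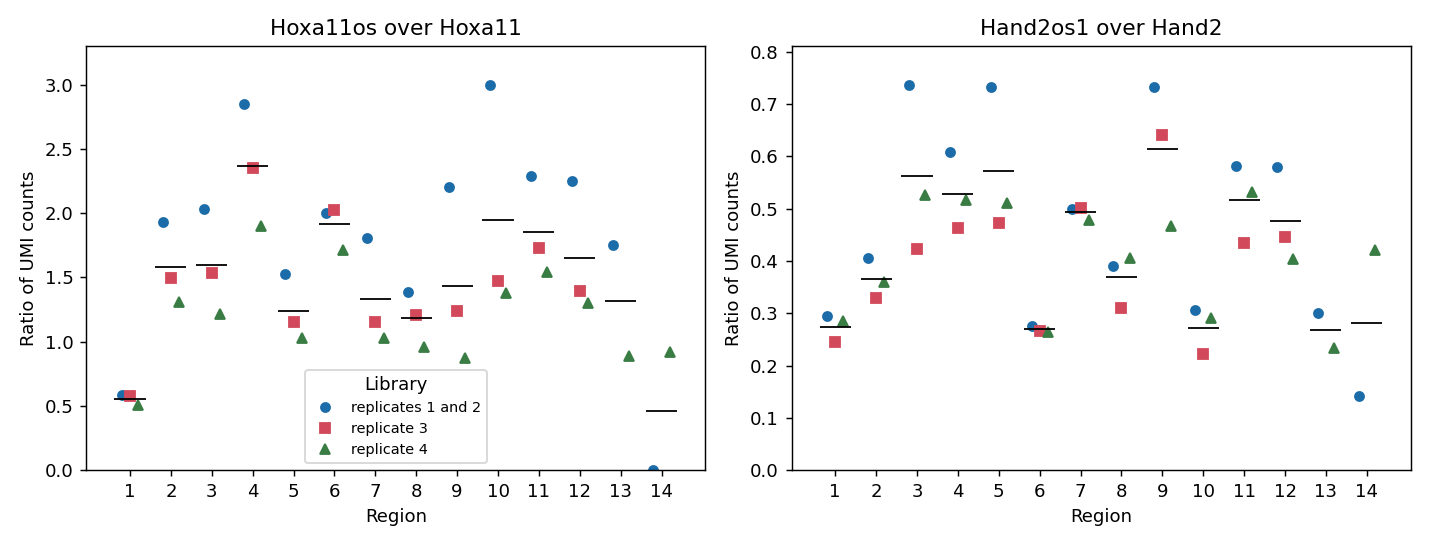
Ratio of UMI counts of Hoxa11os over Hoxa11 (left) and Hand2os1 over Hand2 (right) in each region, by library, with a bar at the mean. In region 1 the Hoxa11os ratio lies between 0.510 and 0.584 in all 3 libraries, and in region 4 between 1.90 and 2.85.

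Other genes of the pathway were followed as lists. Among 30 tested progesterone responsive genes, 5 were higher and 8 lower in region 1, with a median of -0.76 where all genes had -0.01. Sgk1 (1.94 ± 0.09), a hormone-induced kinase gene, and Bmp2 (2.20 ± 0.12), a growth factor gene needed for decidualization, were higher there. In region 7, 10 were higher and 5 lower, with Snai2 (2.64 ± 0.14), a transcription factor gene, and Hoxd10 (1.87 ± 0.12) higher. Region 12, where epithelium and gland markers had their highest summed level (12360 CPM), had 11 higher and 2 lower, led by Hsd11b2 (5.08 ± 0.15), whose enzyme inactivates glucocorticoids. In region 13, 5 were higher and 7 lower, among them Il13ra2 (6.11 ± 0.27), the decoy receptor gene for interleukin 13. The list thus held genes of opposite direction in each of these regions. Bmp2 and Wnt4 of this list are also decidual markers, whose mean picked region 1 for the direct comparisons.

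Estrogen responsive genes, 14 of them tested, were higher for 1 and lower for 1 in region 1, and 7 were higher in region 12. Their median was -0.29 in region 1 and 1.17 in region 12, where all genes had -0.01 and 0.01. Igf1, the growth factor gene, was at -1.28 ± 0.17 in region 1 and 3.89 ± 0.10 in region 12. Msx2, a homeobox gene, was at 2.90 ± 0.31 in region 1. In region 7, where Esr1 was highest, 2 were higher, Fgf10 (5.51 ± 0.29) and Greb1 (1.73 ± 0.18), and 2 were lower. Region 9 had 6 higher and 1 lower, with Ccnd1 (2.53 ± 0.11) and C3 (3.04 ± 0.17) higher. For each list, the share of all genes called in the same region stands above.

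Of the 12 targets shared by glucocorticoids and progesterone, 6 were higher and 1 lower in region 1, with a median of 1.097, and 2 were higher and 6 lower in region 7, with a median of -1.45. The metallothionein gene Mt1 was at 2.41 ± 0.11 in region 1 and -2.35 ± 0.17 in region 7, and Mt2 was at -2.40 ± 0.18 in region 7. Region 8, where Fkbp5 was also high, had 6 higher and 1 lower (median 1.12). In region 13, where Fkbp5 was not, 4 were higher and 1 lower (median 0.42), with Sgk1 at 1.85 ± 0.12. Sgk1, Tsc22d3, Per1 and Errfi1 stand both on this list and on that of progesterone responsive genes.

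Among other steroid receptors, 8 of 11 were tested. Pgrmc1, which encodes a membrane-associated heme protein linked to progesterone, was higher in region 7 (1.495 ± 0.08). Of 14 tested receptor chaperones and coregulators, 3 were higher in region 10, and 4 were higher and 1 lower in region 14. Fkbp4, whose product FKBP52 is a co-chaperone of the progesterone receptor, was lower in region 13 (-2.56 ± 0.24) and higher in region 11 (1.34 ± 0.10). Of 30 Hox and decidual transcription factor genes, 4 were higher and 6 lower in region 1, with Runx1 (1.57 ± 0.10) and Cebpa (1.73 ± 0.16) higher. In region 13, 5 were higher and 12 lower, and in region 9, 14 were higher and 2 lower.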

How the data were processed

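The authors deposited raw Visium UMI counts per gene and spot, 1 matrix per library. Per the file headers these came from Space Ranger 1.2.2, while Cell Ranger and the build mm10 stand in the submitters' processing notes. Strand-aware counting is not stated in the sources used here. Spots with under 1000 UMIs were left out here.

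A random split of the genes gave sets of 16142 and 16143. Leiden clustering (resolution 0.6, seed 0) used 1500 variable genes of 1 set, without the listed genes, and tests used the other set and the listed genes. Clustering rested on 20 principal components and 15 neighbours. Counts were summed per library and region (at least 20 spots, regions in at least 2 libraries). edgeR 4.0.16 (quasi-likelihood, TMM, low-count filter, library as a block) was the test, with Benjamini-Hochberg adjustment over 6504 genes. Replicate numbers name whole libraries, so sums of the same library share a number and the block pairs them. That the libraries come from separate animals is only as the labels' replicate numbers say, so p-values measure the spread between these sums. Spot positions were not used. The fit was tested on simulated data with changes in region 1 only. There 0.0354% of unchanged genes, 49.3% of genes changed 2-fold and 100% of genes changed 4-fold were called. The simulation had no library effect and no differences among the other regions, unlike the data. Alternatives were DESeq2 1.42.0, RLE scaling, no filter, no block, no minimum fold change, other clusterings, other spot minimums, pooled other spots and libraries left out. A call cannot end under no minimum fold change, which loosens the threshold of the same fit, so tallies of alternatives include a result fixed in advance. Named genes were the members, up to 2 called genes per list and region with the smallest p, and the 3 ranked genes most like each member. The members and lists were chosen with earlier results of these data known. Symbols and coordinates were checked against GENCODE M21 (32235 of 32285 IDs found). Intervals cover counting error only. Some genes that the naming rule picks are not reported here.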

Additional observations from a re-analysis of the deposited data

How the results depend on the processing

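Without a minimum fold change the members' calls numbered 57 higher and 42 lower, against 21 and 22, and all genes' calls 21790 higher and 15268 lower, against 10446 and 6656. Against pooled other spots, the members had 7 higher and 34 lower, and all genes 13896 lower. With at least 5000 UMIs per spot, the members had 13 higher, and 3 rather than 5 in region 1 minus region 9. Without region 14, which was chosen after seeing the data, the members had 12 higher and 18 lower, and all genes 8907 higher and 6328 lower. With replicate 4 also left out, the members had 13 higher and 20 lower. The members' main counts over the same regions were 21 and 13 in both cases. Leaving out a library in turn gave 19 to 29 members higher and 17 to 22 lower, 9517 to 10723 genes higher and 3505 to 6314 lower, and 4 to 5 members higher in region 1 minus region 9; with region 14 also out, 8215 genes were higher and 4435 lower. Without replicate 4, 1684 of the tested genes had 0 counts in region 14. With no replicate block, 20 were higher and 22 lower, and the call of Hand2 in region 2 ended. DESeq2 and RLE scaling each kept 37 of 43 calls, and RLE put the median of all genes in region 1 minus region 9 at -0.26, where TMM gave -0.02. TMM scaling moved the mean CPM in a member's highest region by its SD over libraries or more for 7 of 10 members. For the other 3 it moved by less. Fkbp5 in region 13 was 1.35 at resolution 0.3 and 1.51 with no minimum of UMIs, and Cebpb in region 14 was 0.066 at resolution 0.3. At that resolution regions 14 and 10 were matched to the same cluster, with Jaccard indices of 0.283 and 0.576. The value of Cebpb thus covers spots of both regions. Causes of these changes were not tested. No call turned to a call in the opposite direction under these settings. Depth limits Zbtb16 everywhere, and Pgr and Esr1 in region 14.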
